A study of Mus musculus with 16 samples.

Results

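The choroid plexus genes examined here are Ttr, Clic6, Rdh5, Folr1, Kl, Kcnj13, Otx2, Enpp2 and Cldn2, 9 genes that mark or serve the secretory epithelium of the brain ventricles. All probes annotated to them were taken from an array table of 45281 probes. Of the 9 genes, 7 had a probe (11 probes in all), out of 19057 genes with a probe of a single symbol. The annotation used here lists no probe under Kcnj13 or Enpp2, so neither was analysed here. The arrays hold total RNA of the brain of mouse embryos on embryonic day 18, all labelled as strain NOR/CD-1, with 8 arrays of HeCo mutants and 8 of wild-type controls. HeCo mice bear a mutation of Eml1, whose product binds microtubules, and form a second layer of neurons under the normal cortex. No treatment is given for either group. The labels name the tissue only as brain, and do not say whether each sample was a separate animal, which litters were used or how the brain was cut out. The p-values therefore reflect the spread among these samples, which may be technical.

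The choroid plexus is a folded epithelium in the brain ventricles that makes cerebrospinal fluid. Its cells pump ions and water, carry vitamins and hormones from blood to fluid, and secrete proteins, of which transthyretin (Ttr) is the best known. The homeodomain factor Otx2 is needed for this epithelium to form, and also marks parts of the diencephalon and midbrain. In a sample of bulk tissue, fewer epithelial cells and less RNA per cell cannot be told apart.

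Signals were background-corrected and quantile-normalized and are given on the log2 scale. A probe was called detected on an array where its detection p was under 0.05, and was tested where that held on at least 8 of the 16 arrays (18532 probes). Between 17694 and 19553 probes were detected per array, and the mean deposited signal ran from 375 to 598. Precision is limited by having 8 arrays per genotype. Eml1 followed the labels: probe ILMN_1214866 was above background on 0 of 8 arrays in HeCo but 8 of 8 in wild type, and probe ILMN_3137207 on 8 of 8 in HeCo but 0 of 8 in wild type. HeCo 7 and HeCo 16 stood apart from the other arrays in markers of brain regions. Over 22 measured marker genes of the diencephalon, midbrain and hindbrain, the mean relative to wild type (log2) was -2.12 on HeCo 7 and -1.80 on HeCo 16. On the other 6 HeCo arrays that mean lay between -0.25 and -0.01, and on the wild-type arrays between -0.46 and 0.23. The mean of 6 telencephalon markers was 0.53 on HeCo 7 and 0.27 on HeCo 16. The differences of the members, their correlations with Ttr and the spread of Otx2 are given with and without these arrays. Unless stated, other values include them.

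Of the 11 probes, 8 were tested, and they represent Ttr, Clic6, Rdh5, Folr1, Otx2 and Cldn2. No member probe passed the threshold between HeCo and wild type (0 of 8 at a limma adjusted p under 0.05, against 0.0863% of all 18532 probes, 16 in number). With 1 probe a gene, 0 of 6 member genes passed, against 0.0565% of 10624 genes. At an unadjusted p under 0.05 there was 1 of 8, Rdh5, against 6.98% of all probes, and the exact permutation test gave the same count. The groups overlapped for each of the 8 probes, whereas 0.124% of all probes had groups that did not. The median difference of the 8 probes, HeCo minus wild type, was 0.07, with 5 positive and 3 negative, beside a median of -6.26e-05 over all probes. Folr1 and Cldn2 enter it with 2 probes each. With the brightest probe of each of the 6 genes the median was 0.00793, with 3 positive and 3 negative. Across the 16 arrays the signals of Ttr and Clic6 varied together in both genotypes (r = 0.940), those of Folr1 and Cldn2 less closely with Ttr (r = 0.589 and 0.588), and that of Otx2 had an r of -0.310 with Ttr.

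**Figure D1:**
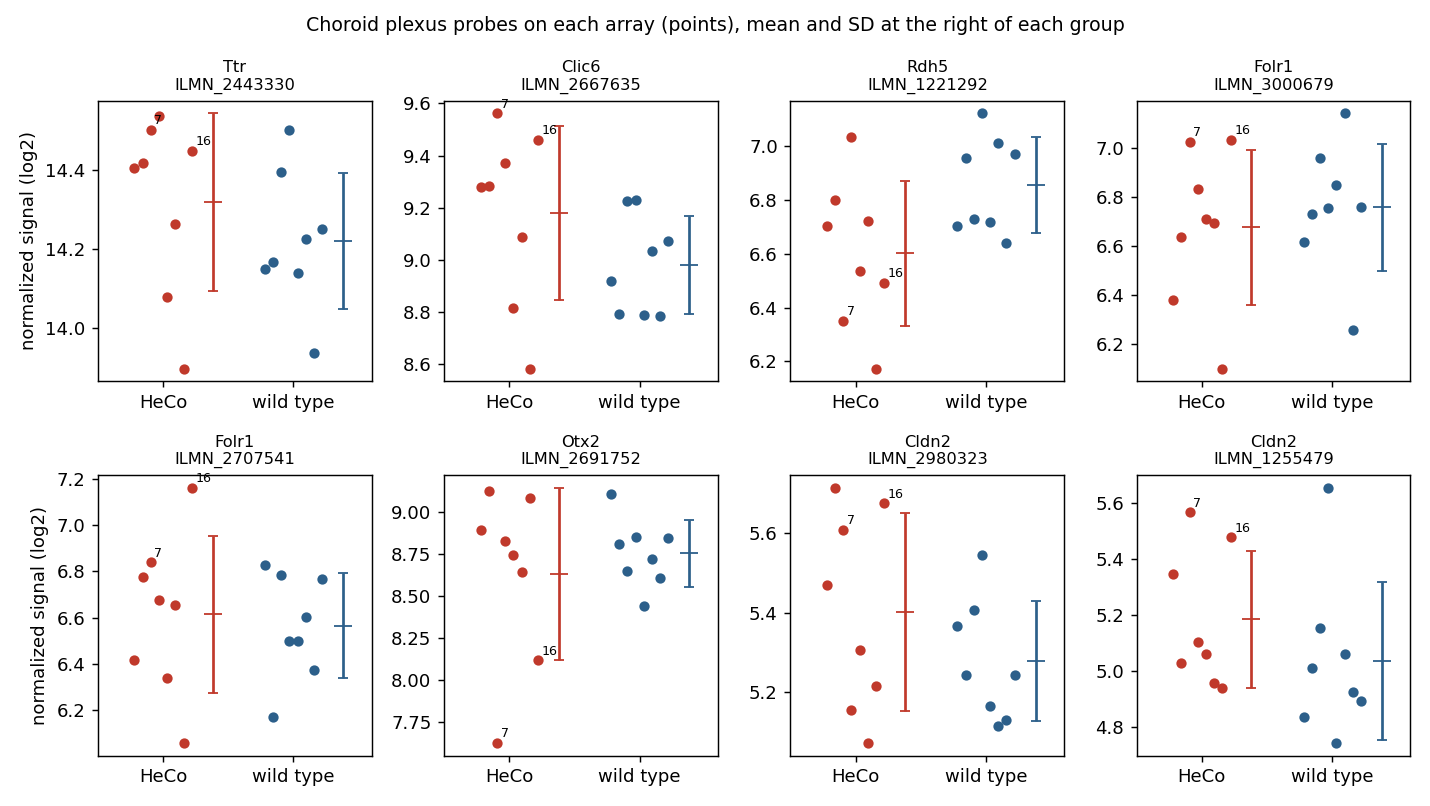
Normalized log2 signal of the 8 tested choroid plexus probes, 1 panel a probe, each point 1 array, HeCo in red at the left and wild type in blue at the right, with the mean and SD (n = 8) beside each group. The groups overlap in every panel, and HeCo 7 and HeCo 16, which are numbered, are the lowest points for Otx2.

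Promoters are shown for 3 tested members, taken from RefSeq's promoter table (assembly GRCm38.p6). These are the members whose promoters were searched and for which the arrays gave values. The search covered 5 of the 9 members, at 8 start sites, each as 250 bases before and 50 after the start. A gene outside the search may still be in the table. Both strands were searched for TAATCC, the core bound by Otx-type homeodomain proteins, and for the TATA box (TATAAA). Matches stand in capitals in the sequences, which read 5′ to 3′ along the gene. The chosen Otx2 start is the only one of its 4 with the TAATCC core, here on the opposite strand, beginning 211 bases before the start, and was picked for that match. Rdh5 had neither motif in this window, and Cldn2 had a TATA box beginning 35 bases before its start.
Otx2 (chr14:48665060-48665359, minus strand): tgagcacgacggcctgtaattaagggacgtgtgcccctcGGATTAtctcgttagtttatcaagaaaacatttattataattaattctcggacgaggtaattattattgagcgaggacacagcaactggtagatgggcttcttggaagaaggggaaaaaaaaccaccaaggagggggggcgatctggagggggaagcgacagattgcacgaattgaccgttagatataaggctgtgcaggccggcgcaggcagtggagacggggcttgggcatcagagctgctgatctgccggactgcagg
Cldn2 (chrX:139800558-139800857, plus strand): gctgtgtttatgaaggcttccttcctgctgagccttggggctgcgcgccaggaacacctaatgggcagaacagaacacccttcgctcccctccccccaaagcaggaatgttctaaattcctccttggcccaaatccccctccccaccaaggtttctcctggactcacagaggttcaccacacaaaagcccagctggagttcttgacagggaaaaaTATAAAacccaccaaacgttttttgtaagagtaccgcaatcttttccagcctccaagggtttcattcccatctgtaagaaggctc
Rdh5 (chr10:128919248-128919547, minus strand): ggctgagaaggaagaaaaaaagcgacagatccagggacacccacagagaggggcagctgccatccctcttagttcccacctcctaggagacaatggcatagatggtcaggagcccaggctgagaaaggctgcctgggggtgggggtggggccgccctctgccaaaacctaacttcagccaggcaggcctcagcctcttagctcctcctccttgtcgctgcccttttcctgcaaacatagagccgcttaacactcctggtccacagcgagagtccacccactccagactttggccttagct
Of all 32851 promoters in the table, 7.06% held TAATCC and 13.6% held TATAAA on either strand. Among the other choroid plexus genes, 3 of 57 promoters of the 38 genes searched held TAATCC (5.26%). A match is a description of letters in this window.

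Ttr encodes transthyretin, the carrier of thyroid hormone and retinol-binding protein that the choroid plexus releases into cerebrospinal fluid. Its probe was detected on every array, and its normalized signal ran from 13.90 through a median of 14.41 to 14.54 on HeCo arrays, against 13.94, 14.19 and 14.501 on wild-type arrays. The lowest and highest HeCo arrays lay just outside the wild-type range at either end. As deposited, before normalization, the signal ran from 18505 through 20747 to 26132 on HeCo arrays, against 16697, 17843 and 23565 on wild-type arrays. The mean was 14.32 ± 0.22 (SD, n = 8) in HeCo and 14.22 ± 0.17 (SD, n = 8) in wild type. The difference was 0.10 (SE 0.09, 95% interval -0.09 to 0.28, limma adjusted p = 0.855), and 6 of 8 HeCo arrays lay above the wild-type mean. As a fold of HeCo over wild type, that interval runs from 0.94 to 1.22. Ttr was among the brightest probes, at rank 63 to 129 on each array. Scaling each array to the same median gave 0.13 (SE 0.08).

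Clic6 encodes a chloride intracellular channel protein of secretory epithelia. Its signal ran from 8.58 through 9.28 to 9.56 on HeCo arrays, against 8.78, 8.98 and 9.23 on wild-type arrays. After normalization the HeCo arrays were spread more widely and reached both lower and higher than wild type. The lowest was HeCo 15, although its deposited signal was 658. As deposited, the lowest array was wild type 9, at 442. The mean of Clic6 was 9.18 ± 0.33 (SD, n = 8) in HeCo and 8.98 ± 0.19 (SD, n = 8) in wild type. The difference was 0.20 (SE 0.12, 95% interval -0.05 to 0.45, limma adjusted p = 0.773). The differences of Ttr and Clic6 depended on which arrays were compared. Within sample numbers 1 to 8 of the descriptions, with 4 arrays a group, they were 0.29 (SE 0.09) and 0.44 (SE 0.11). Within numbers 9 to 16 they were -0.10 (SE 0.13) and -0.04 (SE 0.18). By the numbers of the sample titles the signs did not turn. Within title numbers 1 to 8 they were 0.16 (SE 0.09) for Ttr and 0.33 (SE 0.11) for Clic6. Within title numbers 9 to 16 they were 0.03 (SE 0.11) and 0.07 (SE 0.16). None passed the threshold (lowest limma adjusted p = 0.791), and the difference between these sets of arrays was not tested. Without HeCo 7 and HeCo 16 the differences fell to 0.05 (SE 0.09) for Ttr and 0.09 (SE 0.12) for Clic6.

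Rdh5 and Folr1 serve vitamin handling. Rdh5 encodes a retinol dehydrogenase best known from the retinal pigment epithelium, where it takes part in the visual cycle. Probe ILMN_1221292 ran from 6.17 through 6.62 to 7.03 on HeCo arrays, against 6.64, 6.84 and 7.12 on wild-type arrays. Of the HeCo arrays 7 of 8 lay below the wild-type mean, and the ranges overlapped. The mean was 6.60 ± 0.27 (SD, n = 8) in HeCo and 6.86 ± 0.18 (SD, n = 8) in wild type, a difference of -0.26 (SE 0.11, 95% interval -0.48 to -0.03). This was the smallest unadjusted p of the members (limma p = 0.0279, exact permutation p = 0.0415, two-sided), and it did not pass over all probes (limma adjusted p = 0.678). Without HeCo 7 and HeCo 16 the difference was -0.20 (SE 0.12). The unadjusted limma p was over 0.05 without these arrays (0.105), and also without HeCo 7 alone (0.0597), HeCo 15 (0.0696), wild type 4 (0.0630) or wild type 10 (0.0510), after median scaling (0.0756) and with array weights (0.0639). The second probe of Rdh5, ILMN_1253251, was not detected on any array and gives no fold. On ILMN_1221292, HeCo 15, the array with the brightest deposited signals, had the lowest normalized value, and HeCo 7 the next lowest. As deposited, these arrays had 174 and 133.

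Rdh5 is also an eye gene, so markers of retinal pigment epithelium and eye were read beside it. Of 10 listed, 3 were measured, and their summed signal was 396 to 648 on HeCo arrays and 442 to 559 on wild-type arrays. The sum was led by Rlbp1 (mean 8.55 in HeCo and 8.48 in wild type), so it does not measure eye tissue as such. Tyr, Tyrp1, Cryaa and Crygd, which define pigment cells and lens, were detected on no array, and Rpe65 on 2 HeCo and 2 wild-type arrays. Mitf was detected on at most 2 HeCo and 1 wild-type arrays by any probe, and Crx on 0 HeCo and 3 wild-type arrays. The measured 3 were Rlbp1, Dct and Pmel, none of which passed. Dct, a melanin enzyme of pigment cells, had 6.26 ± 0.62 (SD, n = 8) in HeCo and 6.73 ± 0.37 (SD, n = 8) in wild type, a difference of -0.47 (SE 0.21). It did not pass over all probes (limma adjusted p = 0.701). The differences of Rlbp1 and Pmel had the other sign, 0.08 (SE 0.08) and 0.03 (SE 0.12). The part of pigment cells in the Rdh5 values was not tested.

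Folr1 encodes folate receptor alpha, which takes folate across the choroid plexus epithelium into the fluid. It has 2 probes, each detected on all arrays. ILMN_3000679 ran from 6.10 through 6.70 to 7.04 on HeCo arrays, against 6.26, 6.76 and 7.14 on wild-type arrays. ILMN_2707541 ran from 6.06 through 6.67 to 7.16 on HeCo arrays, against 6.17, 6.55 and 6.83 on wild-type arrays. Neither probe separated the groups, and their differences had opposite signs, -0.08 (SE 0.13, 95% interval -0.35 to 0.19) and 0.05 (SE 0.13, 95% interval -0.22 to 0.32), with limma adjusted p = 0.922 and 0.955. Across the 16 arrays the 2 probes correlated with r of 0.638 (permutation p = 0.0081) and rho of 0.529 (permutation p = 0.0378). Both were high on HeCo 7 and HeCo 16. Without these arrays the differences were -0.20 (SE 0.13) and -0.08 (SE 0.12), so that the sign of ILMN_2707541 turned.

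Cldn2 encodes claudin-2, which forms cation and water pores in the tight junctions of leaky epithelia such as this one. Its signals lay close to background. ILMN_2980323 was detected on 8 HeCo arrays and 7 wild-type arrays and ran from 5.07 through 5.39 to 5.72 in HeCo, against 5.11, 5.24 and 5.55 in wild type. ILMN_1255479 was detected on 6 HeCo arrays and 2 wild-type arrays. It ran from 4.94 through 5.08 to 5.57 in HeCo, against 4.74, 4.97 and 5.66 in wild type. The differences were 0.13 (SE 0.11, 95% interval -0.09 to 0.34) and 0.15 (SE 0.13, 95% interval -0.11 to 0.41). Neither passed (limma adjusted p = 0.849 and 0.846). ILMN_1255479 met the detection filter mainly through its 6 HeCo arrays. Detection is read from the same signal, so it is no separate support for a difference. The probes correlated with r of 0.673 (permutation p = 0.00416) and rho of 0.5265 (permutation p = 0.0376) over 16 arrays. Without HeCo 7 and HeCo 16 both differences were 0.04 (SE 0.11 and 0.12).

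Kl encodes klotho, a co-receptor of the hormone FGF23 that adult choroid plexus carries. Its probe ILMN_2930843 was detected on no array, and ILMN_1253148 on 1 array, of HeCo. Kl was therefore not well above background in either group, and no fold is given.

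**Figure D2:**
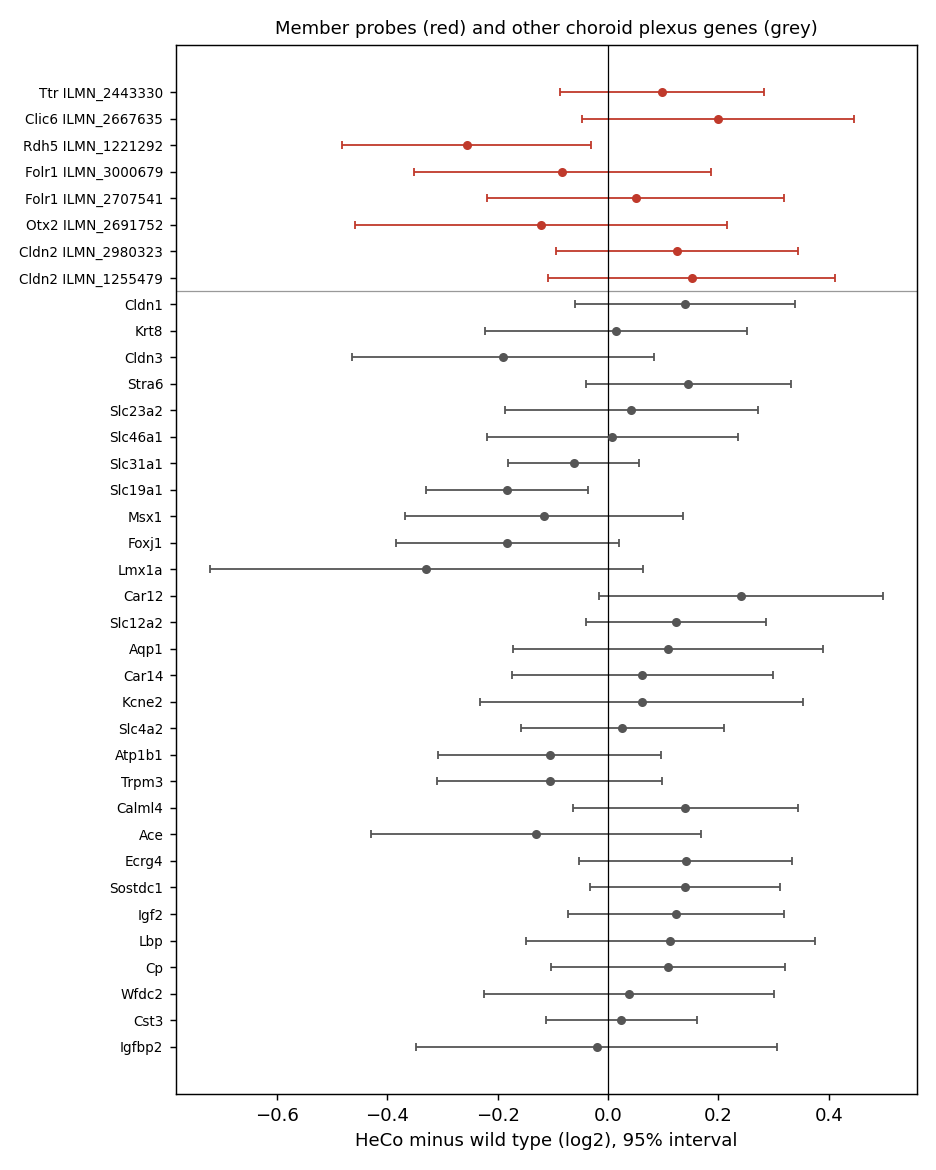
Difference in log2 signal, HeCo minus wild type, with its 95% interval, for the 8 member probes (red) and the 29 other measured choroid plexus genes (grey), with zero marked. All but 2 intervals, those of Rdh5 (-0.48 to -0.03) and Slc19a1 (-0.33 to -0.04), include zero.

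Otx2, the transcription factor, was lowest on the 2 arrays with the lowest mean of diencephalon, midbrain and hindbrain markers. Its probe ran from 7.63 through 8.78 to 9.13 on HeCo arrays, against 8.44, 8.76 and 9.10 on wild-type arrays. The lowest values were HeCo 7, at -1.13 relative to the wild-type mean, and HeCo 16, at -0.63, and no wild-type array was as low. The mean was 8.63 ± 0.51 (SD, n = 8) in HeCo and 8.75 ± 0.20 (SD, n = 8) in wild type, a difference of -0.12 (SE 0.16, 95% interval -0.46 to 0.22, limma adjusted p = 0.910). The sign turned without HeCo 7 and HeCo 16, where the difference was 0.13 (SE 0.10), and without HeCo 7 alone, where it was 0.02. On the same arrays Ttr lay 0.28 and 0.23 above the wild-type mean and Clic6 0.58 and 0.48 above it. Cldn2 (ILMN_2980323) lay 0.33 and 0.40 above it. Rdh5 lay at -0.51 and -0.36 relative to it. Relative to the wild-type mean, these arrays had low Otx2, Rdh5 and markers of diencephalon, midbrain and hindbrain beside high Ttr, Clic6, Folr1 and Cldn2. Of the member probes, only those of Otx2 and Clic6 and Folr1 ILMN_2707541 lay outside all other arrays on both. Ttr was higher on HeCo 8 (14.54), Folr1 ILMN_3000679 on wild type 10 (7.14) and Cldn2 ILMN_2980323 on HeCo 6 (5.72). Rdh5 was lowest on HeCo 15 (6.17). The part of those brain regions in the values was not tested. On the 14 other arrays, Otx2 and the mean of the region markers had r of 0.232 (permutation p = 0.428) and rho of 0.279 (permutation p = 0.334). Without the 2 arrays farthest from the median of that mean, r was 0.105. On the 14 arrays the region mean spanned only -0.46 to 0.23. These r values therefore cannot decide anything about the low Otx2 of HeCo 7 and HeCo 16.

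**Figure D3:**
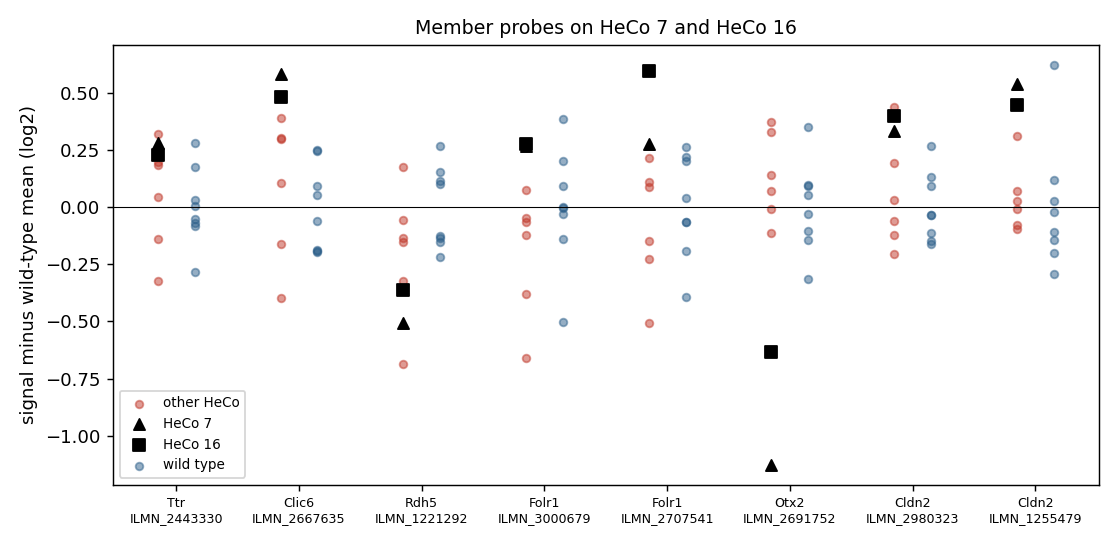
Log2 signal of each member probe minus its wild-type mean, with HeCo arrays at the left of each column (HeCo 7 as a triangle, HeCo 16 as a square, the other 6 as red points) and wild-type arrays in blue at the right. HeCo 7 and HeCo 16 lie above zero for Ttr, Clic6, Folr1 and Cldn2 and below zero for Rdh5 and Otx2 (-1.13 and -0.63).

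The spread between arrays of 1 genotype differed among the probes. The SD pooled within the groups was 0.39 for Otx2, at percentile 98.1 of all tested probes. Without HeCo 7 and HeCo 16 it was 0.194, at percentile 55.6, so the wide spread of Otx2 rests on those arrays. It was 0.29 for each Folr1 probe (percentiles 90.6 and 90.4) and 0.27 for Clic6 (percentile 86.7). Rdh5 had 0.23 (percentile 72.0) and Ttr 0.20 (percentile 55.6), near the median of all tested probes, 0.19. From the lowest to the highest of the 16 arrays, the signal spanned 1.56-fold for Ttr, 1.97-fold for Clic6 and 2.83-fold for Otx2, which spanned 1.61-fold without HeCo 7 and HeCo 16. In the authors' normalized values, which carry no such background correction, the pooled SD of the Folr1 probes was 0.176 and 0.178. No percentile was taken on that scale, so these SDs cannot be set against the median of 0.19.

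Across the 16 arrays Clic6 followed Ttr closely. Their signals had a Pearson r of 0.940 and a Spearman rho of 0.949, each with a permutation p of 1e-05, the smallest that 100000 resamples can give (adjusted p = 5e-05 over the 5 members set against Ttr). The relation held among HeCo arrays (r = 0.974, exact permutation p = 0.000422, n = 8) and among wild-type arrays (r = 0.894, exact permutation p = 0.000397, n = 8). It was 0.930 without HeCo 15 and wild type 11, the 2 arrays farthest from the median of Ttr, and 0.953 without HeCo 7 and HeCo 16. In title numbers 1 to 8 and 9 to 16 it was 0.907 and 0.9505, and in description numbers 1 to 8 and 9 to 16 it was 0.919 and 0.956. Among 10622 genes, each by its brightest probe, Clic6 had the highest r with Ttr. The median r of all those genes was 0.00840. Its rank was 4 after median scaling, 3 among the HeCo arrays alone and 17 among the wild-type arrays alone.

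**Figure D4:**
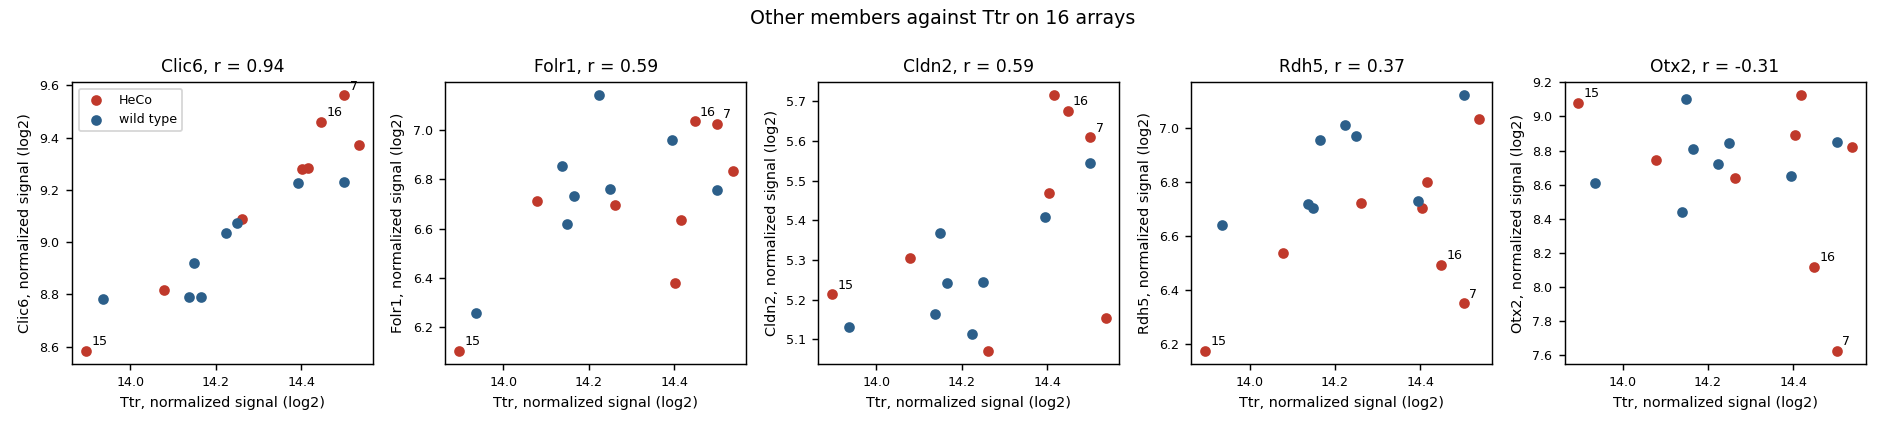
Normalized log2 signals of Clic6, Folr1, Cldn2, Rdh5 and Otx2 (vertical axes) against Ttr (horizontal axes) on 16 arrays, HeCo in red and wild type in blue, with HeCo 7, HeCo 15 and HeCo 16 numbered. Clic6 lies along a line with Ttr (r = 0.94), while for Rdh5 and Otx2 HeCo 7 and HeCo 16 fall away from the other arrays.

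The other members followed Ttr less closely. Folr1, by its brighter probe ILMN_3000679, had an r of 0.589 with Ttr (permutation p = 0.0153, adjusted p = 0.0303) and a rho of 0.470 (permutation p = 0.0680, adjusted p = 0.113). Without HeCo 15 and wild type 11, picked as the farthest in Ttr itself, its r was 0.150. The r of this probe thus depended on those 2 arrays. The other Folr1 probe, ILMN_2707541, was not set against Ttr. Cldn2, by ILMN_2980323, had an r of 0.588 (permutation p = 0.0182, adjusted p = 0.0303) and a rho of 0.490 (permutation p = 0.0562, adjusted p = 0.113), and r was 0.548 without those arrays (adjusted p = 0.113). Rdh5 had an r of 0.371 (permutation p = 0.157, adjusted p = 0.196) and a rho of 0.374 (permutation p = 0.153, adjusted p = 0.191). Its r was 0.701 without HeCo 7 and HeCo 16 (permutation p = 0.00433, adjusted p = 0.0108), 0.0396 without HeCo 15 and wild type 11, and -0.0444 after median scaling. Otx2 had an r of -0.310 (permutation p = 0.249, adjusted p = 0.249) and a rho of -0.0515 (permutation p = 0.849, adjusted p = 0.849), and its r was 0.0908 without HeCo 7 and HeCo 16. In percentiles of r over all genes, Folr1 and Cldn2 each stood at 97.3, Rdh5 at 87.6 and Otx2 at 15.5. Of the other pairs, Clic6 and Cldn2 had r of 0.638, Clic6 and Folr1 0.553, and Otx2 and Folr1 -0.533, given here as descriptions over 16 arrays.

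The wider choroid plexus list held 43 other genes, of which 39 had a probe and 29 were measured. None of the 29, each by 1 probe, passed the threshold (limma adjusted p, against 0.0863% of all probes and 0.0565% with 1 probe a gene). At an unadjusted limma p under 0.05 there was 1 of 29, against 6.98% of all probes. The exact permutation test cannot call any probe here, since the smallest p it allows is 0.000155 and the lowest adjusted p over all probes was 0.125. Of the 29 differences 19 were positive and 10 negative, with a median of 0.04, beside -6.26e-05 over all probes. Slc19a1, the reduced folate carrier, had the smallest p, at 8.33 ± 0.12 (SD, n = 8) in HeCo and 8.52 ± 0.13 (SD, n = 8) in wild type (difference -0.18, SE 0.07). Car12, a membrane-bound carbonic anhydrase, had 8.61 ± 0.35 (SD, n = 8) in HeCo and 8.37 ± 0.20 (SD, n = 8) in wild type (difference 0.24, SE 0.12). The probes with the highest signals were those of the growth factor Igf2 (difference 0.12, SE 0.09), the protease inhibitor Cst3 (0.02, SE 0.07) and the sodium pump subunit Atp1b1 (-0.11, SE 0.10).

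By role, the 8 genes of ion and water transport had differences from -0.11 to 0.24, 6 of them positive. The 8 secreted and carrier proteins ran from -0.02 to 0.14, 7 positive. The 5 genes of folate, vitamin and metal transport ran from -0.18 to 0.15. The 3 transcription factors, Lmx1a, Foxj1 and Msx1, were all negative, from -0.33 to -0.12. No gene of these groups passed. Of all 18532 probes, 9260 had a positive difference. Several of these genes varied together with Ttr, so the counts by role are not of independent genes. Ace and Calml4, the measured receptors and enzymes, had -0.13 (SE 0.14) and 0.14 (SE 0.10). Of the epithelial and junction genes, Cldn1 had 0.14 (SE 0.10), Krt8 0.01 (SE 0.11) and Cldn3 -0.19 (SE 0.13).

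Among the same 29 genes, 12 had an r over 0.5 with Ttr over 16 arrays (41.4%), where 5.50% of all 10622 genes did. Their median r was 0.285. The water channel Aqp1 had 0.859, rank 4 of all genes, Car12 0.828, rank 11, and Igf2 0.810, rank 16. Next came Msx1, a homeodomain factor (0.728), the potassium channel subunit Kcne2 (0.722), and Igfbp2, which binds insulin-like growth factors (0.710). The secreted proteins Ecrg4 and Sostdc1 had 0.657 and 0.624, the carbonic anhydrase Car14 0.592, Lbp 0.582, the anion exchanger Slc4a2 0.572 and Cldn1 0.536. These were 5 of 8 genes of ion and water transport and 5 of 8 secreted and carrier proteins, but 0 of 5 genes of folate, vitamin and metal transport. Lmx1a, a factor of the roof plate from which the plexus arises, had -0.322. The count was 12 without HeCo 7 and HeCo 16, where 6.84% of all genes passed 0.5, and 9 (31.0%) without HeCo 15 and wild type 11, where 8.08% did. It was 8 (27.6%) after median scaling, where 3.41% of all genes passed. Among HeCo arrays alone it was 11 (37.9%), with 15.7% of all genes, and among wild-type arrays 16 (55.2%), with 9.47%.

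**Figure D5:**
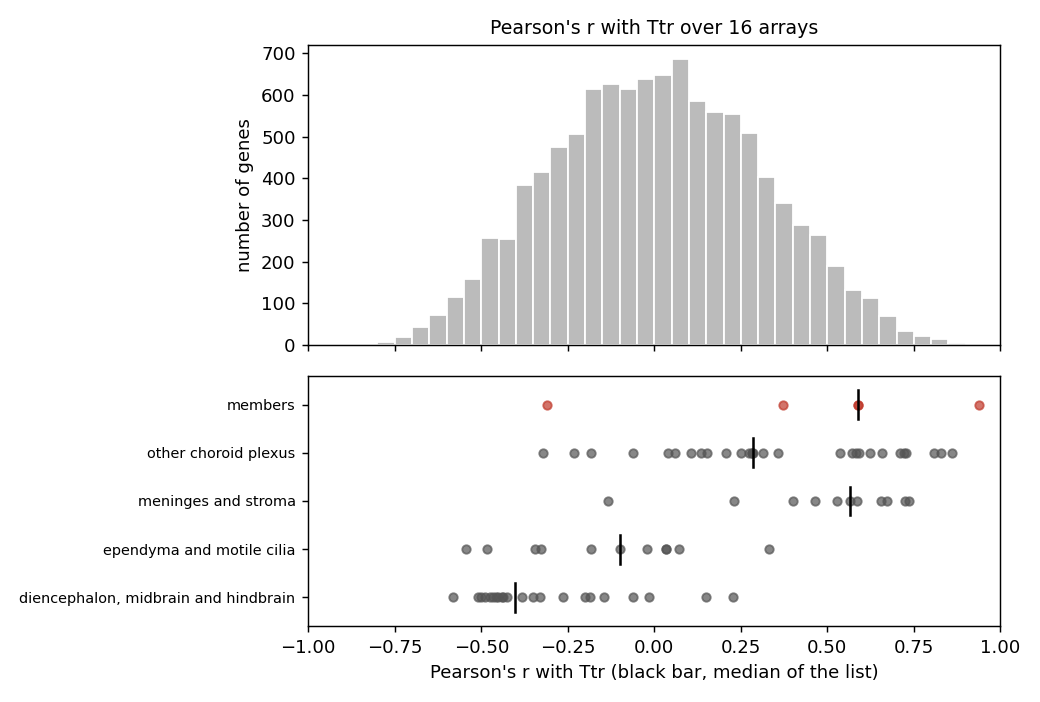
Pearson's r with Ttr over 16 arrays. The upper panel counts all 10622 other genes in steps of 0.05, and the lower panel shows each measured gene of the members (red) and of 4 lists (grey) as a point, with a black bar at the list's median. The medians are 0.285 for other choroid plexus genes, 0.565 for meninges and stroma, -0.10 for ependyma and motile cilia and -0.40 for diencephalon, midbrain and hindbrain.

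Markers of meninges and stroma were correlated with Ttr as well. Of 11 measured, 7 had an r over 0.5 with Ttr (63.6%), and their mean correlated with Ttr with r of 0.723 (permutation p = 0.00123) and rho of 0.686 (permutation p = 0.00408). That r was 0.610 without HeCo 15 and wild type 11. Their summed signal was 4439 to 6049 on HeCo arrays and 3344 to 6045 on wild-type arrays, lowest on wild type 11 and highest on HeCo 16. The list's brightest gene was the proteoglycan Dcn, with r of 0.723, and its Col1a2 probe was detected on 0 HeCo and 1 wild-type arrays. The part of meninges or stroma in the pattern of Ttr was not tested.

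The other marker lists had fewer such genes. Of 11 measured genes of ependyma and motile cilia, 0 had an r over 0.5, and their summed signal was 2093 to 2939 on HeCo arrays and 2328 to 3145 on wild-type arrays, with Rsph1 the brightest. Of 6 blood genes with a measurable r, 0 passed 0.5, and the summed signal of 7, led by Hbb-bs, was 127368 to 140998 on HeCo arrays and 124726 to 139739 on wild-type arrays. Hbb-bs stood at the same top value on all 16 arrays, so that sum could vary little. Of 7 genes of the cortical hem, which borders the plexus in the embryo, 2 passed 0.5. The summed signal of the 7 was 906 to 1250 on HeCo arrays and 971 to 1059 on wild-type arrays, and Wnt5a was the brightest. Of 22 genes of diencephalon, midbrain and hindbrain, 0 passed. Their summed signal was 1544 to 8308 on HeCo arrays and 4828 to 7570 on wild-type arrays, and Tcf7l2 was the brightest. Of 6 telencephalon genes, 1 passed, with a summed signal of 7069 to 11882 on HeCo arrays and 6497 to 8800 on wild-type arrays, led by Bcl11b. Of 3 eye genes, led by Rlbp1, 1 passed. No gene of these lists passed the threshold between HeCo and wild type.

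The genes most like the members in pattern were ranked by r, over 16 arrays, with the mean of the centred signals of Ttr, Clic6, Otx2, Rdh5 and Folr1, the members detected on all 16 arrays. The first 10 were Fcgrt, the neonatal Fc receptor (0.883), Slc6a12, a betaine and GABA transporter (0.833), Elovl1 (0.830), Nbl1, a BMP antagonist (0.823), Col26a1 (0.820), Igf2 (0.801), Lhfpl2 (0.794), the GABA transporter Slc6a13 (0.792), the alcohol dehydrogenase Adh1 (0.791) and Pard6b (0.790). Of these, Igf2 was on the choroid plexus list and Slc6a13 on the list of meninges and stroma. That mean includes Otx2, whose r with Ttr was -0.310, so Ttr alone was also used, a choice made after the values were seen. Clic6 then came first. After it stood Olfml1 (0.883), Scarf2 (0.863), Aqp1 (0.859), the proteoglycan Bgn (0.856), Nbl1 (0.853), Fcgrt (0.845), the ketone body enzyme Bdh1 (0.839), the organic anion transporter Slc22a6 (0.831), the secreted serpin Serpinf1 (0.830) and Car12 (0.828). None of these 10 passed between HeCo and wild type (lowest limma adjusted p = 0.731). Without HeCo 15 their r with Ttr ran from 0.781 to 0.886.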

How the data were processed

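Biotin-labelled RNA of 16 mouse brain samples had been measured on 1-colour Illumina bead arrays, per the labels. The deposited table holds an intensity and a detection p-value for each probe and array. The authors' detection p-values come in steps of 1/936, and the submitters' processing notes name GenomeStudio, whose version they do not give. The deposited intensities are the table the submitters call non-normalized, and no background step is stated. The authors' normalized table (the series matrix) holds intensities within 0.00474 (log2) of a quantile normalization of them, and served as an alternative.

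Groups were taken from the sample titles. In R 4.3.3 with limma 3.58.1, neqc (offset 16) gave log2 values, and lmFit and eBayes (trend on) compared HeCo with wild type, with no covariate, over all 18532 kept probes (Benjamini-Hochberg, threshold 0.05, two-sided). Plots were drawn with matplotlib 3.10.9. Symbols came from the platform annotation, updated by Entrez ID for 34807 probes (34885 had 1 symbol, 18 several, 10378 are unnamed here). Where 1 probe stands for a gene, it is the brightest kept one. The code was tested on simulated data. Members, lists, tests and alternatives were chosen with earlier results of these data known. The genes named are all member probes, of the other choroid plexus list the 2 smallest p and the 3 brightest, the 10 genes most like the members, and the brightest gene of each other list. Genes with an r over 0.5, those by role and those likened to Ttr alone were added after their values were seen.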

Additional observations from a re-analysis of the deposited data

Results flagged for a closer look

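On probe ILMN_1255479 of Cldn2, wild type 4 had a log2 signal of 5.66, with 5.15 the next highest wild-type array, a gap of 0.551 of the group's whole range. It is 1 of 16 groups of 8 arrays checked (8 probes, 2 genotypes), and chance marks about 1 in 20. The other Cldn2 probe, ILMN_2980323, also had its highest wild-type value on wild type 4, at 5.55.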

How the results depend on the processing

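No member probe passed the threshold under any alternative run, and neither did any of the 29 other choroid plexus genes. The exact permutation test says nothing here, as its lowest adjusted p over all probes was 0.125. The alternatives, 28 to 30 a probe, changed the normalization, the filter, the unit of the test, the array weights, blocks by numbers, the arrays left out, or the test. No paired analysis was possible because the genotypes share no replicate number. Signs turned as follows. In description numbers 9 to 16 alone the differences were -0.10 for Ttr, -0.0416 for Clic6 and -0.27 for Folr1 ILMN_2707541. In description numbers 1 to 8 alone they were 0.15 for Folr1 ILMN_3000679 and 0.00259 for Otx2. ILMN_2707541 had -0.00612 in title numbers 9 to 16 and -0.0783 without HeCo 7 and HeCo 16, where Otx2 had 0.13. With 1 array left out, ILMN_2707541 ran from -0.0280 (without HeCo 16) through -0.00621 (without wild type 2) to 0.13, and Otx2 from -0.19 to 0.0225 (without HeCo 7).

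The count over all probes, 16, was 8 for probes detected on all arrays, 10 with no filter, 6 with 1 probe a gene, 0 by the exact permutation test, which could call none, 5 in title numbers 1 to 8 and in 9 to 16, 6 and 4 in description numbers 1 to 8 and 9 to 16, and 7 to 17 with 1 array left out (lowest without wild type 2). Of these calls 62.5% were higher in HeCo, and 84.6% after median scaling, where the median difference of all probes was 0.0509.

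The r of Clic6 with Ttr kept its call throughout. The r of Folr1 lost it after median scaling (0.4997), without the 2 arrays farthest in Ttr (0.150), in title numbers 1 to 8 (0.337), description numbers 1 to 8 (0.684) and 9 to 16 (0.546), among HeCo (0.701) and wild-type arrays (0.586), and without HeCo 7 and HeCo 16 (0.504) or HeCo 15 (0.425). Cldn2 lost it under the same settings (0.549, 0.548, 0.298, 0.505, 0.776, 0.450 among HeCo arrays, 0.483 and 0.594) and in title numbers 9 to 16 (0.5258), but not among wild-type arrays. Several of these settings hold only 8 arrays. Rdh5 turned to -0.0444 after median scaling and passed without HeCo 7 and HeCo 16 (0.701). Otx2 turned to 0.104 in description numbers 1 to 8, 0.210 among wild-type arrays and 0.0908 without HeCo 7 and HeCo 16. The settings without HeCo 15, with signals as deposited and, for the spread, without HeCo 7 and HeCo 16 (Otx2 0.194) were chosen after seeing the data. In deposited signals 19 other choroid plexus genes passed an r of 0.5, with 13.7% of all genes, and Clic6 ranked 4. It also ranked 4 after median scaling, 3 among HeCo and 17 among wild-type arrays. In the series matrix the pooled SD was 0.143 for Rdh5, 0.176 and 0.178 for Folr1, and 0.0856 and 0.109 for Cldn2. The cause of these changes was not tested. Low signal over background limits Cldn2 and Kl.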
